A study of Homo sapiens with 10 samples.

Results

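The amino acid transporter families SLC1, SLC3, SLC6, SLC7, SLC36, SLC38 and SLC43 were looked for by gene symbol in the probe annotation of these arrays, leaving out pseudogenes, antisense genes and genes on chromosome 16. The annotation used here named 2 genes whose symbol fits, of which 1 is an antisense gene and was left out. The 1 remaining gene, SLC38A12, is described here, out of 14884 named genes. Other genes of these families were not analysed here, so nothing below speaks of the families as a whole. The symbol rule itself used no measured values, though the gene, lists and tests were chosen with earlier results of these data known.

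The cells were 5 lines of HCT116, an established cell line from a human colorectal carcinoma, measured on Affymetrix arrays with 53617 probe sets each. ORC1B14 and ORC1BP32 are ORC1 mutant lines, ORC2B2 and ORC2BP8 are ORC2 mutant lines, and WT is wild type. Each line has 2 arrays, all lines were untreated, and every comparison with wild type rests on the same 2 arrays of 1 WT line. The titles call the replicates biological. The labels do not say which mutation a line carries, whether it grew from 1 cell, or whether the replicates came from separate cultures, so a p-value here speaks only of the spread between arrays, which may be technical. Both mutated genes encode parts of the origin recognition complex, the protein machine that marks where DNA replication begins. Values are in log2 units, so that a difference of 1 is a 2-fold difference. That base was read from the range of the values, which run from 1.45 to 13.7. Precision is limited by the small number of arrays.

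The solute carrier families searched are membrane proteins that carry amino acids and related small molecules across the plasma membrane or the membranes of organelles. The SLC38 family holds sodium-coupled carriers of neutral amino acids such as glutamine, together with members found on lysosomes. Cells raise many amino acid carriers when amino acids run short, largely through the transcription factor ATF4, and the protein kinase complex mTORC1 reads the supply inside the cell. SLC38A12 is a protein-coding gene on chromosome 17 whose older symbol is TMEM104, by the RefSeq gene table. It stands in the SLC38 family by its symbol, and no substrate is assigned to it here.

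SLC38A12 was measured by 1 probe set (16837646). Its expression value was 8.37 and 8.02 in ORC1B14 and 8.23 and 8.15 in ORC1BP32. The ORC2 mutant line ORC2B2 had 8.35 and 7.96 and ORC2BP8 had 8.19 and 8.29, against 7.49 and 7.40 in WT (replicates 1 and 2 of each line). All 8 mutant arrays lay above both WT arrays, and the mutant lines overlapped one another. Between the lowest mutant array, at 7.96 in ORC2B2, and the highest WT array, at 7.49, there was a gap of 0.47. Of the 10797 genes tested, 7.96% had every mutant array above both WT arrays, and 0.278% (30 genes) had a gap of at least this width. SLC38A12 was a well detected transcript in every line. It stood higher than 85.2% to 90.3% of the named probe sets on the mutant arrays, against 78.7% to 81.1% on the WT arrays, although probe sets differ in brightness for reasons other than transcript number.

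**Figure D1:**
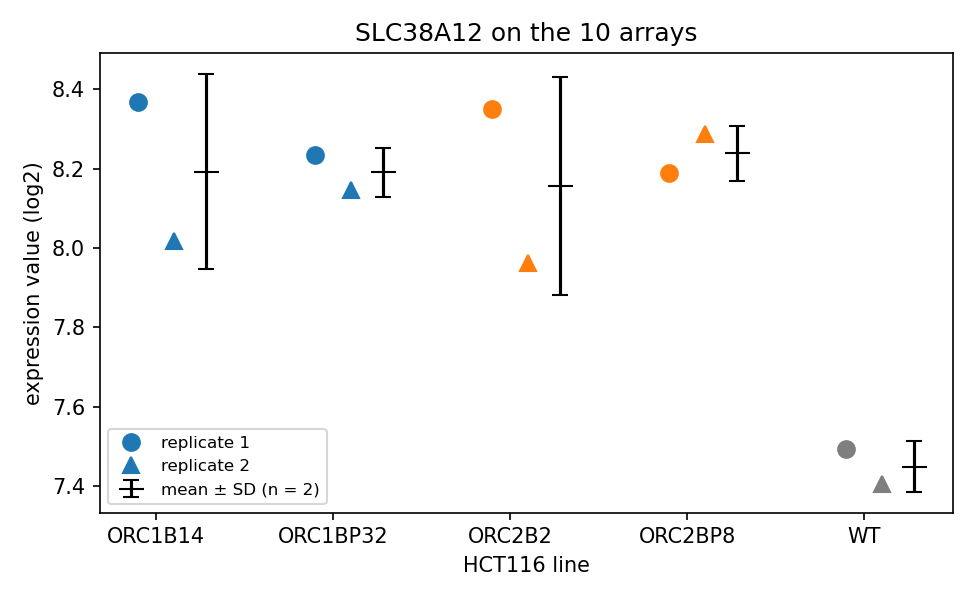
Expression value of SLC38A12 (log2, vertical axis) on each of the 10 arrays, by line along the horizontal axis, with ORC1 mutants in blue, ORC2 mutants in orange and WT in grey, circles for replicate 1, triangles for replicate 2 and, at the right of each line, the mean ± SD of its 2 arrays. The mutant arrays lie between 7.96 and 8.37, all above the WT arrays at 7.49 and 7.40.

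Ordered by mean, SLC38A12 stood at 8.24 ± 0.0685 in ORC2BP8, 8.19 ± 0.25 in ORC1B14, 8.19 ± 0.0613 in ORC1BP32, 8.16 ± 0.27 in ORC2B2 and, lowest, 7.45 ± 0.0635 in WT (SD, n = 2 each). The 4 mutant lines spanned 0.08, less than the residual SD of the gene across replicates, 0.17, so no neighbouring mutant lines in this order differed beyond their spread. The step from the lowest mutant line to WT was 0.71. Replicates were farthest apart in ORC2B2 and ORC1B14, where replicate 1 was the higher array, and closest in ORC1BP32, WT and ORC2BP8. The residual SD was below that of 71.1% of the genes tested.

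Taken over the mean of the 4 mutant lines, SLC38A12 was 0.75 above WT (SE 0.16, 95% interval 0.40 to 1.09), which is 1.68-fold with an interval of 1.32 to 2.14. The call threshold is an adjusted p of 0.05, Benjamini-Hochberg over all 10797 genes, and by limma the difference missed it (unadjusted p = 0.000663, adjusted p = 0.0520). Thus 0 transporter genes were called in this comparison, where 1.02% of all genes tested were. By unadjusted p the gene ranked 137 of 10797, and 122 genes had a difference at least as far above WT, this one included. Leaving out 1 array moved the difference within 0.70 to 0.79. The gene passed without ORC1B14 replicate 2 (limma adjusted p = 0.0444) or ORC2BP8 replicate 1 (adjusted p = 0.0470), and the adjusted p was 0.296 and 0.302 without WT replicates 1 and 2, at differences of 0.79 and 0.70. With 1 WT array left, its spread is taken from the other lines, and calls over all genes fell to 22 and 2, against 110 with all arrays.

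Each mutant line was then set against WT, which asks whether the difference is carried by a single line. SLC38A12 stood 0.74 above WT in both ORC1B14 and ORC1BP32, 0.71 above it in ORC2B2 and 0.79 above it in ORC2BP8, with an SE of 0.20 for each. These are 1.67-fold, 1.67-fold, 1.63-fold and 1.73-fold differences. None of the 4 was called by limma (adjusted p = 0.116, 0.255, 0.173 and 0.104, in the same order), while each had an unadjusted p under 0.05 (0.00349, 0.00356, 0.00474 and 0.00236). The share of all genes called in either direction was 0.583% for ORC1B14 and 0.0185% for ORC1BP32, and it was 0.333% for ORC2B2 and 0.935% for ORC2BP8. Since the comparisons share the WT arrays, a low or high WT value would enter all of them alike. At least 0.5 above WT in each of the 4 lines were 1.69% of the genes tested, with SLC38A12 among them, and 1.64% were higher in each line at an unadjusted p under 0.05.

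Array medians were 3.94 to 3.96 for replicate 1 and 3.87 to 3.89 for replicate 2, so differences were also taken within each replicate number. Within replicate 1, SLC38A12 was 0.87 above WT in ORC1B14 and 0.74 in ORC1BP32, and 0.86 above it in ORC2B2 and 0.70 in ORC2BP8. Within replicate 2 it was 0.61, 0.74, 0.56 and 0.88 above WT in the same order. Since every mutant array lay above both WT arrays, all 8 within-number differences had to be positive, and only their sizes are informative. These lay between 0.56 and 0.88.

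The mutated genes were compared next. SLC38A12 stood 0.74 above WT in the mean of the ORC1 lines (SE 0.17, limma adjusted p = 0.0923) and 0.75 above WT in the mean of the ORC2 lines (SE 0.17, adjusted p = 0.0657). These comparisons called 0 transporter genes, where 0.269% and 1.07% of all genes were called. Directly compared, the ORC1 lines differed from the ORC2 lines by -0.01 (SE 0.14, 95% interval -0.32 to 0.31, adjusted p = 0.998), a comparison with 0.0463% of all genes called. Within ORC1 mutants, ORC1B14 was 0.0023 above ORC1BP32 (interval -0.44 to 0.44). Within ORC2 mutants, ORC2B2 was 0.08 below ORC2BP8 (log2 difference -0.08, interval -0.52 to 0.36). Neither pair was called by limma (adjusted p = 0.99956 and 0.99999), and the shares of all genes called were 0.0185% and 0.222%. The intervals run from 0.738-fold to 1.36-fold for the ORC1 pair and from 0.696-fold to 1.28-fold for the ORC2 pair, so equal levels are not shown. Across the 10 comparisons SLC38A12 had an unadjusted p under 0.05 in all 7 with WT and in 0 of the 3 between mutant lines. The comparisons with WT are not separate results, since they share the WT arrays and those of means average the single lines. Of all genes tested, 10.1% to 17.3% had such a p in a single comparison with WT and 5.32% to 6.96% in one between mutant lines. Jointly, 1.64% were higher than WT in each of the 4 mutant lines at an unadjusted p under 0.05.

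**Figure D2:**
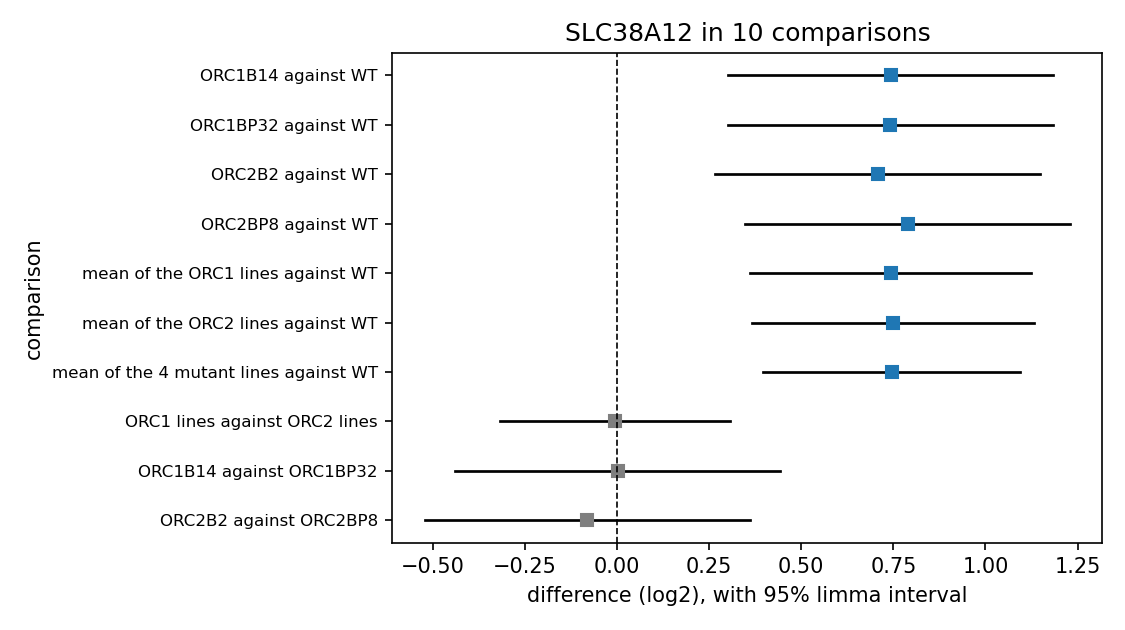
Log2 difference of SLC38A12 (horizontal axis) in each of 10 comparisons (rows), with squares for the estimate and lines for the 95% limma interval, in blue against WT and in grey between mutant lines. The 7 comparisons with WT lie between 0.71 and 0.79 with intervals above 0, and the 3 between mutant lines lie near 0.

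The place of SLC38A12 on chromosome 17 was looked at through its 20 nearest tested genes, 10 on each side in RefSeq order, since a gained or lost stretch would move neighbours together. In the mean of the 4 mutant lines, 17 of these 20 genes stood above WT, with a median of 0.16 and a range of -0.07 to 0.62, and 0 were called by limma. The median over the 716 tested genes of chromosome 17 was 0.10, and over all genes tested it was 0.04. SLC38A12, at 0.75 in that mean, lay above each of its 20 neighbours there and in both ORC1 mutant lines, and not in the ORC2 mutant lines. The highest neighbour stood at 0.64 in ORC1B14 and 0.62 in ORC1BP32, and at 0.78 in ORC2B2 and 0.85 in ORC2BP8, where SLC38A12 stood at 0.71 and 0.79. The nearest on either side were the immune receptor gene CD300LF at 0.03 and USH1G, a scaffold gene of sensory hair cells, at 0.24. CDR2L at 0.62 (SE 0.21) and TTYH2, a membrane protein gene, at 0.60 (SE 0.16) were the neighbours closest to it in size, with limma adjusted p = 0.167 and 0.0942. By line the median of the neighbours was 0.20 in ORC1B14 and 0.22 in ORC1BP32, and 0.17 in ORC2B2 and 0.13 in ORC2BP8. The part of copy number in the difference was not tested.

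**Figure D3:**
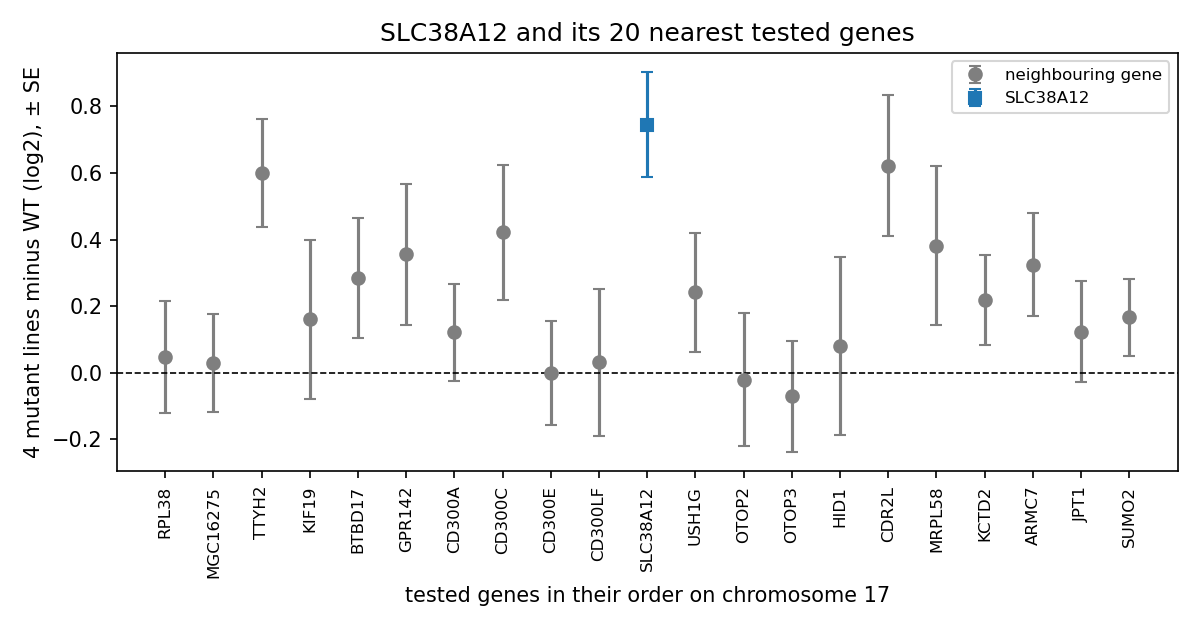
Mean of the 4 mutant lines minus WT (log2, vertical axis, ± SE) for SLC38A12 (blue square) and its 20 nearest tested genes (grey circles), in their order along chromosome 17. SLC38A12 lies at 0.75 and its neighbours between -0.07 and 0.62.

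Genes that handle amino acids were read beside SLC38A12 from 4 lists, in the mean of the 4 mutant lines against WT, where 0.417% of all genes were called higher and 0.602% lower. The annotation named 14 of 20 genes listed for the ATF4 branch and 17 of 30 for amino acid synthesis and use. It named 22 of 32 for sensing by mTORC1 and only 6 of 28 other amino acid and peptide carriers. The counts therefore speak only for the genes tested. Of 12 tested genes of the ATF4 branch, 0 rose and 3 fell by limma. These were TRIB3, a pseudokinase induced by ATF4 (-1.73, SE 0.20, adjusted p = 0.0107), DDIT3, which encodes the stress factor CHOP (-1.55, SE 0.20, adjusted p = 0.0107), and DDIT4, an inhibitor of mTORC1 signalling (-1.14, SE 0.22, adjusted p = 0.0399). The median of the list was -0.28, against 0.04 for all genes tested. At an unadjusted p under 0.05, 0 of the 12 were higher and 5 lower, where 17.3% of all genes tested passed in either direction. By line, limma called TRIB3 lower in each of the 4 mutant lines, DDIT3 in ORC2B2 and ORC2BP8, and DDIT4 in ORC2BP8 only. The calls of DDIT3 do not set the mutated genes apart. It stood at -1.91 for ORC2BP8 and -1.44 for ORC2B2. Without a call it stood at -1.74 for ORC1BP32 and -1.11 for ORC1B14 (limma adjusted p = 0.0740 and 0.0866). The mean of the ORC1 lines was called for DDIT3 (-1.43, limma adjusted p = 0.0357). Its ORC1 against ORC2 difference was not (0.25, SE 0.18, limma adjusted p = 0.865). DDIT4 stood at -0.14 in ORC1B14 (SE 0.28), at -1.35 in ORC1BP32, at -1.36 in ORC2B2 and at -1.71 in ORC2BP8. SLC38A12 therefore stood above WT in lines where TRIB3, but not each gene of this branch, was called lower. ATF4 itself stood at -0.34 (SE 0.15) and was not called (limma adjusted p = 0.296).

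Of 16 tested genes of amino acid synthesis and use, 0 rose and 1 fell. It was ASNS, asparagine synthetase (-1.39, SE 0.22, limma adjusted p = 0.0207). The serine synthesis enzymes PHGDH and PSAT1 stood at -0.69 and -0.92 without a call (limma adjusted p = 0.0506 and 0.0570). A further serine synthesis enzyme, PSPH, stood at 0.10 (SE 0.18, limma adjusted p = 0.822). At an unadjusted p under 0.05, 1 gene of the list, SHMT1 at 0.55, was higher and 6 were lower, where 17.3% of all genes tested passed. The 6 tested amino acid carriers outside the families searched gave 0 calls by limma and had a median of 0.15. At an unadjusted p under 0.05, 1 of the 6 was higher and 0 were lower, against the same 17.3% of all genes tested in either direction. The highest of these carriers were the lysosomal cationic amino acid carrier SLC66A1 at 0.43 and the mitochondrial serine carrier SFXN1 at 0.33 (limma adjusted p = 0.168 and 0.307). The others were SLC25A15 at 0.22, SLC25A2 at 0.07, SFXN3 at 0.02 and SFXN2 at -0.29. The 22 tested genes of amino acid sensing by mTORC1 also gave 0 calls by limma, with a median of -0.04. At an unadjusted p under 0.05, 1 of the 22 was higher and 0 were lower, again against 17.3% of all genes tested. Without WT replicate 2, where only 2 of all genes tested were called, TRIB3, DDIT3, DDIT4 and ASNS were not called (limma adjusted p = 0.118, 0.154, 0.254 and 0.210), at differences of -1.67, -1.45, -1.09 and -1.21. The calls of DDIT3, DDIT4 and ASNS were also lost without WT replicate 1 (0.0645, 0.252 and 0.0790), where 22 of all genes were called, that of ASNS also without ORC1BP32 replicate 1, and that of DDIT4 without either ORC1BP32 array, ORC2B2 replicate 2 or ORC2BP8 replicate 2 (0.0504 to 0.0841).

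The sequence before the start of SLC38A12 was read for the composite C/EBP-ATF element through which ATF4 acts, because genes of that branch were called lower. The 250 bases before its annotated start (RefSeq, GRCh38.p14, chr17:74776249-74776498, plus strand) are shown 5′ to 3′. Capitals mark matches to CCAAT, the letters that the factor NF-Y binds in other genes, which were searched after the sequence had been seen.
SLC38A12 promoter: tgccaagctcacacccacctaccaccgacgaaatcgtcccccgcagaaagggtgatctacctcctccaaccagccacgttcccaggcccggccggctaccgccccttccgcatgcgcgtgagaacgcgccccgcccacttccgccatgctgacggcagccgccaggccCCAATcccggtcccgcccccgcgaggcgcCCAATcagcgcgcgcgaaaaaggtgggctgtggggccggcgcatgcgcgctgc
On both strands 0 matches to TGATGNAA, the core of that element, were found in this window, where 3.14% of 35116 windows of the same length held one. CCAAT occurs at 82 and 53 bases before the start, and 32.0% of all windows hold it on either strand. These matches do not overlap. The window is rich in CG pairs, with 30 of them and 70.8% G and C, against medians of 11 and 58.0% over all windows. A match is a string of letters, and no binding was measured here.

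Marker genes were read for the identity of the lines. All 9 named colorectal epithelial markers lay at or above the array median on all 10 arrays. EPCAM ran from 9.75 to 10.5, and the keratins KRT18 and KRT19 were also bright. VIL1, GPA33 and CDX1 lay nearer the median, at 3.93 to 4.44, 4.46 to 5.00 and 4.54 to 5.02. The hepatocyte markers APOA1 and TTR ran from 4.04 to 5.12 and from 4.38 to 4.70, so this measure does not set those 3 apart from them. KRT20, at 3.98 to 6.58, overlapped them too. CDX2, at 5.31 to 5.74, lay within the range of the neuron marker SYN1, 4.87 to 5.87. KRT20 also overlapped SYN1, as did KRT8 slightly, at 5.82 to 6.56. Of the 9 epithelial markers, 7 had a higher mean in the mutant arrays than in the WT arrays. KRT20, a keratin of differentiated intestinal cells, rose by 1.99 in ORC2B2 and by 1.31 in the mean of the ORC2 lines (SE 0.30 and 0.26, limma adjusted p = 0.0322 and 0.0441). The other ORC2 line, ORC2BP8, stood at 0.63 without a call (SE 0.30, limma adjusted p = 0.366). The mean of the 4 mutant lines stood at 0.82, also without a call (limma adjusted p = 0.109). Of 12 named markers of fibroblasts, blood, hepatocytes, neurons and glia, 6 lay below the median on every array (DCN, LUM, CD14, LYZ, ALB and APOB) and 5 at or above it on every array (THY1, CD68, APOA1, TTR and SYN1). Of 3 named blood markers, CD68, which many other cells also express, averaged 8.59 in the mutant arrays and 8.0035 in the WT arrays, while CD14 and LYZ were dim throughout. The part of other cell types in the SLC38A12 difference was not tested.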

How the data were processed

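Each array has 1 log2 value for every probe set, as deposited by the authors. Affymetrix Expression Console made them, per the submitters' processing notes; its settings and version, the normalization and the build are not given there. Per the labels' protocols RNA was extracted with Trizol and labelled with biotin. No scaling was added, and 0 pairs of arrays were identical.

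Of 53617 probe sets, 16098 had 1 gene symbol, 0 had several and 37519 were unnamed here. By gene ID all 16098 matched the RefSeq table (assembly GRCh38.p14), and 0 symbols changed. Named probe sets at or above the array median on at least 2 arrays were kept (11554), and the brightest stood for each gene, giving 10797 genes. The test was limma 3.58.1 in R 4.3.3, with 5 line means, an intensity trend and all 10 arrays in 1 fit, two-sided and adjusted by Benjamini-Hochberg over all genes at 0.05. The script was tested on simulated data. Arrays give no read depth.

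Replicate numbers occur in the array titles, and no label says that they mark a batch. Deviations of same-numbered arrays correlated at 0.0812 to 0.568 over 10 pairs of lines, and with 2 numbers the rule for pairing was not met. Alternatives changed the scaling, filter, gene summary, genes in the fit, variance model and replicate block, and left out each array. The gene, lists and tests were chosen with earlier results of these data known. Every member of the families was to be named, with values on each array for those called and those with the largest differences.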

Additional observations from a re-analysis of the deposited data

How the results depend on the processing

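SLC38A12 stood above WT in all 7 comparisons with WT under the 8 other settings and without each of the 10 arrays. With no overlap of mutant and WT values, only quantile normalization and centring could change this. Over its 10 comparisons, 162 values kept direction without a call, 9 passed the threshold and 9 changed sign. All sign changes were between mutant lines and far from any call. There was no call to lose. With the replicate number as a block, 1 transporter gene was called in place of 0 in ORC1B14, ORC2BP8, both means by mutated gene and the mean of the 4 mutant lines (adjusted p = 0.0373, 0.0304, 0.0254, 0.0172 and 0.0136), at unchanged differences. The count in that mean was also 1 after quantile normalization (difference 0.78, adjusted p = 0.0418, 204 genes called). It was 1 with a stricter filter on dim values (0.0463, 145 called). It stayed 0 with unnamed probe sets included (adjusted p = 0.125), without the filter (0.0669), after centring (0.0668), with the mean over probe sets (0.0515) and without the trend (0.0551). With the block, all-gene calls rose from 63, 101, 29, 115 and 110 to 496, 402, 454, 570 and 709, in the order above. ORC1 minus ORC2 turned to 0.016 after quantile normalization and lay between -0.10 and 0.091 without single arrays. ORC1B14 minus ORC1BP32 turned to -0.0044 after centring and lay between -0.17 and 0.18, and ORC2B2 minus ORC2BP8 lay between -0.28 and 0.11. Without 1 array, ORC1 minus ORC2 turned to 0.091 (ORC2B2 replicate 1), 0.08 (ORC1B14 replicate 2), 0.02 (ORC1BP32 replicate 2) and 0.02 (ORC2BP8 replicate 2). The ORC1 pair turned to -0.17 (ORC1B14 replicate 1) and -0.04 (ORC1BP32 replicate 2), and the ORC2 pair to 0.11 (ORC2B2 replicate 2). The cause of these shifts was not tested. Synthesis-gene calls numbered 1, 5 with the block, 3 after quantile normalization and under the stricter filter, and 0 with unnamed probe sets. ATF4-branch calls numbered 3, 5 with the block and 0 with unnamed probe sets. These list alternatives were chosen after seeing the data. Passes of SLC38A12 and list calls lost without single arrays are given above, and DDIT4 also lost its call without the filter (0.0503).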
